A study of Homo sapiens with 18 samples.

Results

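Chromatin accessibility was examined at the genes of 7 receptor and ligand proteins that can carry growth signals when EGFR is blocked: the TAM-family receptors AXL, TYRO3 and MERTK, their ligand GAS6, the HGF receptor MET, its relative MST1R, and the ephrin receptor EPHA2. A region was taken as belonging to a gene if it overlapped the gene's body extended by 20 kb on both sides (GENCODE release 44 on GRCh37/hg19). This gave 58 of the 115087 regions in the accessibility table: 6 for AXL, 3 for TYRO3, 8 for MERTK, 9 for GAS6, 18 for MET, 2 for MST1R and 12 for EPHA2. The data were ATAC-seq libraries, in which the Tn5 transposase cuts and tags open chromatin, from 3 human head and neck squamous cell carcinoma (HNSCC) lines that had been chosen for their sensitivity to cetuximab, an antibody that blocks EGFR. SCC1, SCC6 and SCC25 received 100 nM cetuximab every day, or PBS as the untreated control, and were collected at 5 days. Each of the 6 groups had 3 replicates except SCC1 PBS, which had 2 (replicates 1 and 3), so 17 libraries were analysed. SCC1 PBS replicate 2 was not analysed here. Each line is 1 established tumour line, so a difference between lines is a difference between 3 individual lines. No source says that the replicates were separate cultures, and the p-values then measure the spread between these libraries, which may be technical.

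AXL, TYRO3 and MERTK are receptor tyrosine kinases. The vitamin K-dependent ligand GAS6 activates them, and the related PROS1 activates TYRO3 and MERTK. MET is activated by HGF, and MST1R (also called RON) by the related factor MST1. EPHA2 binds ephrin-A ligands held on neighbouring cells. In carcinoma cells these receptors feed the same RAS-MAPK and PI3K routes as EGFR through adaptors such as GAB1, GRB2 and SHC1, and raised AXL or MET activity is a known route of resistance to EGFR inhibitors. Accessible chromatin marks promoters, enhancers and other regulatory DNA, and a gain or loss of accessibility is not a measurement of RNA or protein.

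The values are scaled reads per region, as deposited (0 reads set to 1, times 1 factor per library). Reads in regions ranged from 2194851 to 15017130 per library, deepest in SCC6 cetuximab replicate 3 and shallowest in SCC1 cetuximab replicate 2, and a library had 7.14% to 28.8% of its regions at the 1-read floor. Pairs of replicates (16 in all) correlated at 0.920 to 0.973 (Pearson, over regions) and spread more widely than counting error alone gives. Of the squamous epithelium markers, KRT5, KRT14, KRT17, TP63, CDH1 and EPCAM each had promoter peaks in at least 1 line, but KRT14 had none in SCC6 and TP63 none in SCC1. PTPRC, CD3E, CDH5 and MYOD1, which mark other cell types, had no promoter region. Distances are given from the start site of the gene's canonical transcript to the region's centre, with minus for upstream. Values of a group are listed in the order of replicate numbers, which is 1 and 3 for SCC1 PBS.

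The regions on which the results turned were mostly introns and gene flanks rather than promoters. The central 200 bases of 7 of them are printed from the GRCh37 genome, plus strand, 5′ to 3′, because they cover the strongest gain in SCC6, a gain and a loss that hold letters of known motifs, the AXL start, and a region open in SCC6 alone. Capitals mark matches to the AP-1 motif TGANTCA or the TFAP2 motif GCCNNNGGC, and a window printed all in lower case has neither.
AXL, 0.2 kb upstream (chr19:41724785-41724984, start-site region): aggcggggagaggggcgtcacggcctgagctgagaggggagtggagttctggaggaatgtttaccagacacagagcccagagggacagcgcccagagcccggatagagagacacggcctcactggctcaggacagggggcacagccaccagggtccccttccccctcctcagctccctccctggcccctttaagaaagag
GAS6, 26.3 kb downstream (chr13:114540678-114540877): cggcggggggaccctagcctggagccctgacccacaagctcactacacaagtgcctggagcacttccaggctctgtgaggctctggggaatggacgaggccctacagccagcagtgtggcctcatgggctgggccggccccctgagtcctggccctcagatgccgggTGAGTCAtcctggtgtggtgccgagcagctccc
GAS6, 8.7 kb upstream (chr13:114575644-114575843, open in SCC6): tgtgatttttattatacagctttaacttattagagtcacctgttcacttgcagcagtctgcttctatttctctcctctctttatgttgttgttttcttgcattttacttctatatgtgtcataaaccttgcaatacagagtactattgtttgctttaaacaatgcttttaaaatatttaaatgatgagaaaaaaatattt
MET, 7.5 kb downstream (chr7:116319638-116319837, lower in SCC1): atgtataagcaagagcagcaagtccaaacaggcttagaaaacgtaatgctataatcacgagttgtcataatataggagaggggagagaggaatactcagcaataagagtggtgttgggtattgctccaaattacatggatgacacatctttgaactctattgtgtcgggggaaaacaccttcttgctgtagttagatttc
MET, 30.1 kb downstream (chr7:116342273-116342472, higher in SCC6): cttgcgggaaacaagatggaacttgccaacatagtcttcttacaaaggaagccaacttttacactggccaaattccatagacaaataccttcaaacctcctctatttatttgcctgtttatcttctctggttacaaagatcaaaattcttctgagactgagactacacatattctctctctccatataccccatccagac
MET, 44.7 kb downstream (chr7:116356804-116357003, higher in SCC6): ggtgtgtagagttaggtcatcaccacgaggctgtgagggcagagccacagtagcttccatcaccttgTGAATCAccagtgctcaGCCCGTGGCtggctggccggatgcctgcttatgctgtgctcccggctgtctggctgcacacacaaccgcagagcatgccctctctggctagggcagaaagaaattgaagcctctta
MET, 100.5 kb downstream (chr7:116412631-116412830, lower in SCC1 and SCC6): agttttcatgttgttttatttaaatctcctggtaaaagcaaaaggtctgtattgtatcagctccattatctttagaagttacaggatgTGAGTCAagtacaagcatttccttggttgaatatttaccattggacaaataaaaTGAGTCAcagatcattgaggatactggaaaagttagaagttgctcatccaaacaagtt

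Cetuximab-treated libraries differed from PBS at some of these regions in SCC1 and SCC6. In SCC6, 16 of the 50 regions tested passed an adjusted p under 0.05 in limma, 11 higher and 5 lower with cetuximab. The background was 27.5% of all 86315 regions tested in SCC6, with 16.9% higher and 10.6% lower. In SCC1, 8 of 53 passed, 6 higher and 2 lower, where the background was 11.1% of 86321 regions, with 4.57% higher and 6.56% lower. In SCC25 limma called 0 of 52, with 3 at an unadjusted p under 0.05 and 0 by edgeR, against a background of 0.315%. With libraries scaled to regions without a peak, 9 SCC25 regions were called, all lower. The background under that scaling was 13589 of 86315 regions called, 13483 of them lower. Called regions numbered 23 over SCC1 and SCC6, and 1 of them, in MET, was called in both. The overlap of calls over all regions was not counted, and a call in 1 line alone does not show that the lines differ. Of the 58 regions, 2 were too low to be tested in any line.

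The tested regions had a median log2 change of 0.32 (SCC1), 0.12 (SCC6) and -0.12 (SCC25), beside -0.09, 0.11 and -0.08 over all regions. The direction split depended on scaling in SCC6. Centring each library on its median gave 9 higher and 9 lower. With edgeR on recovered reads or quantile normalization it was 10 and 7, and scaling to regions without a peak gave 18 and 4. The split over all regions also moved, to 10394 higher and 15782 lower under median centring and 26390 and 5260 when scaled to regions without a peak. It was 13184 and 11561 with edgeR and 11366 and 12979 with quantile normalization. Leaving out either of the SCC1 PBS libraries lowered the SCC1 count. Such a fit rests on a lone control library, and its counts over all regions are not given here. The drop therefore cannot be read as particular to these genes. A bulk library cannot tell a change in every cell from a change in the share of cells with the region open.

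With all lines in 1 fit, 4 regions were higher and 2 lower of 53 (background 12.2%, with 5.14% higher and 7.04% lower). The higher ones were 3 in GAS6 and 1 in MET, and the lower ones were both in MET. On leaving out SCC1 PBS replicate 1 the higher ones were all lost (adjusted p = 0.0538 to 0.0837), and without SCC1 PBS replicate 3 so was the loss at MET 104.7 kb (0.0834). Of the 6 calls over all lines, 0 passed under every alternative tried with limma or edgeR. This fit shares its libraries with the fits of single lines. The effect of cetuximab differed between lines (interaction F-test, adjusted p under 0.05) at 13 of 53 regions, where the background was 13.2%: 7 in MET, 3 in EPHA2, 2 in the AXL window and 1 in MST1R. TYRO3, MERTK and GAS6 had none.

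**Figure D1:**
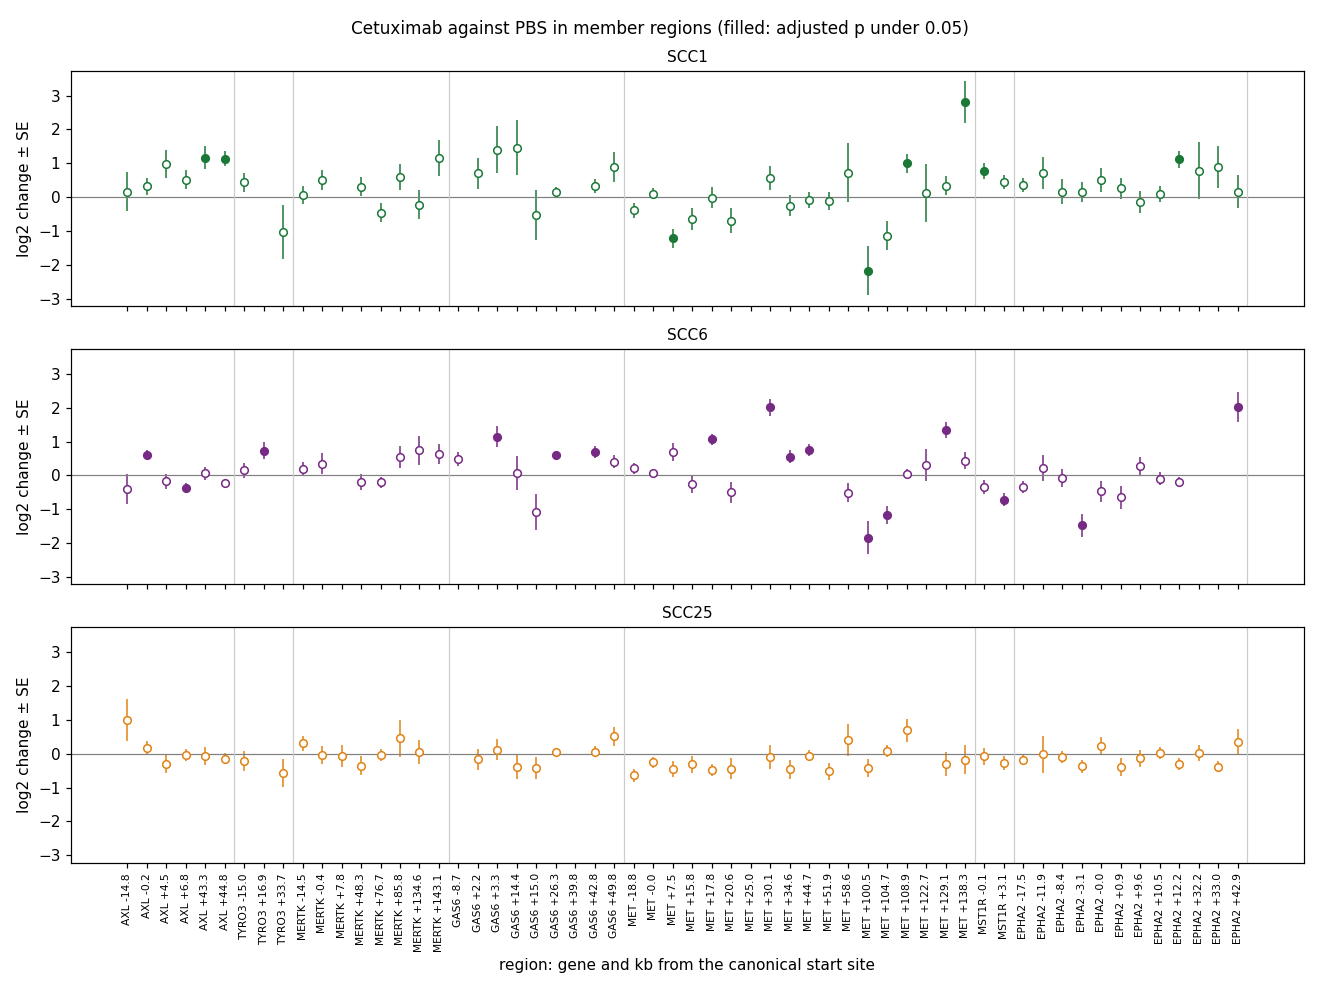
Log2 change with cetuximab against PBS (vertical axis, ± SE) for every member region tested, ordered by gene and by kb from the canonical start site (horizontal axis), with 1 panel per line and filled points for an adjusted p under 0.05. Filled points number 8 in SCC1, 16 in SCC6 and 0 in SCC25, and most of those in SCC6 lie in MET and GAS6.

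At AXL, the region over the start site was higher with cetuximab in SCC6. This region (chr19:41724550-41725219, exon 1 and the sequence before it) read 114, 102 and 97.9 in the SCC6 PBS libraries and 141, 154 and 185 with cetuximab, with no overlap. The log2 change was 0.61 ± 0.15 (SE, adjusted p = 0.00132, limma), and it passed under every alternative tried. In SCC1 the same region read 95 and 83.7 with PBS and 135, 87.6 and 119 with cetuximab, and in SCC25 73.5, 64.2 and 54.3 with PBS and 64.7, 58.6 and 97.4 with cetuximab. The treated and untreated libraries overlapped in both of those lines, with log2 changes of 0.32 (adjusted p = 0.458) and 0.17 (adjusted p = 0.775). The interaction did not pass at this region (adjusted p = 0.543), so a difference between lines in the cetuximab response of the AXL start was not shown.

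A second AXL region, in an intron 6.8 kb downstream and 322 bases from the start of another AXL transcript (chr19:41731614-41732338), had the highest mean of the AXL regions near a start. In SCC6 it read 149, 180.0 and 177 with PBS and 129, 129 and 131 with cetuximab, a log2 change of -0.37 ± 0.14 (adjusted p = 0.0351). The libraries did not overlap, but the call was lost in 9 of 15 alternatives, among them removal of the GC trend (adjusted p = 0.12) and scaling to regions without a peak (0.418), and without SCC6 PBS replicate 2 (0.142) or replicate 3 (0.113), or any SCC6 cetuximab replicate (0.0534 to 0.0852). In the other two lines it was not called, with log2 changes of 0.52 in SCC1 and -0.04 in SCC25. The AXL regions at 14.8 kb upstream and 4.5 kb downstream were not called in any line.

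In SCC1 the called regions of the AXL window lay past the 3′ end of AXL, at or near starts of HNRNPUL1, which encodes an RNA-binding nuclear protein. The region at 44.8 kb (chr19:41769585-41770263), 14 bases from an HNRNPUL1 start, read 109 and 70.3 with PBS and 222, 144 and 230.1 with cetuximab, a log2 change of 1.14 ± 0.22 (adjusted p = 5.34e-05). It read 297, 286 and 246 with PBS and 203, 241 and 272 with cetuximab in SCC6, a log2 change of -0.22 that did not pass. The interaction did pass here (adjusted p = 0.00108). Its neighbour at 43.3 kb (chr19:41768294-41768585, over an exon of a non-canonical HNRNPUL1 transcript) read 29.9 and 29 with PBS and 60.9, 64.2 and 78.2 with cetuximab in SCC1, a log2 change of 1.17 ± 0.34 (adjusted p = 0.00976). Without SCC1 PBS replicate 3 the call was lost at both (adjusted p = 0.0802 and 0.107). The neighbour also lost it on leaving out SCC1 PBS replicate 1 (0.116) or the third SCC1 cetuximab library (0.0594). Both lie in a stretch where many regions moved: of the 68 regions tested within 1 Mb of AXL outside its window, 22 were higher and 1 lower in SCC1, and their median log2 change was 0.82, beside 0.75 for the 6 AXL-window regions.

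TYRO3 had no region within 1 kb of a start site, and 1 region in its body. That region, in an intron 16.9 kb downstream (chr15:41868228-41868428), read 45.9, 34.1 and 37 with PBS and 87.9, 68.7 and 45.3 with cetuximab in SCC6, where all libraries had a peak. The log2 change was 0.73 ± 0.24 (adjusted p = 0.0199), although the lowest treated library lay within the untreated ones. The call was lost in 7 alternatives, including removal of the GC trend (adjusted p = 0.236), median centring (0.0611), all libraries in 1 fit (0.218), and without SCC6 cetuximab replicate 1 (0.17) or replicate 2 (0.0794) or SCC6 PBS replicate 2 (0.094) or replicate 3 (0.0588). In SCC1 it read 1.30 and 1.12 with PBS and 5.08, 3.89 and 3.13 with cetuximab, too low to be tested. The other TYRO3-window regions, over the start of RPAP1, which encodes an RNA polymerase II-associated protein, and downstream of the gene, were not called in any line.

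No MERTK region was called in any line. The region just upstream of the MERTK start (chr2:112655539-112656059, 0.4 kb) read 44.2 and 56.9 with PBS and 77.4, 64.2 and 75.1 with cetuximab in SCC1. It read 19.3, 30.1 and 16.3 with PBS and 28.3, 25.1 and 28.4 with cetuximab in SCC6, and 39.9, 38.9 and 40.7 with PBS and 29.5, 34.5 and 56.7 with cetuximab in SCC25. The SCC1 libraries did not overlap (log2 change 0.51 ± 0.30), but the adjusted p was 0.295, and it was 0.415 in SCC6 and 0.965 in SCC25. The strongest MERTK region by share of libraries with a peak (16 of 17), over exon 7 at 76.7 kb, was lower without passing in SCC1 (log2 -0.46, adjusted p = 0.316) and in SCC6 (-0.20, 0.342). It was named after its values were seen.

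GAS6, the ligand of the TAM receptors, gained accessibility at 3 of 7 tested regions in SCC6 and lost it at none. The strongest of its regions, with a peak in 17 of 17 libraries (chr13:114540203-114541351, 26.3 kb downstream, over exon 6), read 149.8, 139 and 119.6 with PBS and 191, 193 and 234 with cetuximab in SCC6. The groups did not overlap and the log2 change was 0.60 ± 0.13 (adjusted p = 0.000411). The same region was higher in untreated SCC1 (416 and 389.7) and in SCC25 (303, 277 and 234), and with cetuximab it read 503, 368 and 496 in SCC1 and 267, 276 and 296 in SCC25, log2 changes of 0.16 (adjusted p = 0.547) and 0.05 (adjusted p = 0.893). Every treated SCC6 library stayed below every SCC1 library, and the highest of them, 234.4, was level with the lowest SCC25 library, 234.1. Its printed window holds 1 AP-1 motif.

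The other GAS6 calls in SCC6 were in an intron and over exon 15, and were named after their values were seen. The intronic region 3.3 kb downstream (chr13:114563587-114563842) read 15.7, 19.4 and 12 with PBS and 33.3, 33.4 and 39 with cetuximab (log2 1.14 ± 0.31, adjusted p = 0.00452). In SCC1 each treated library was also above the controls, 10.2, 15.6 and 25 against 6.51 and 4.47, without passing (log2 1.40, adjusted p = 0.195). The region over exon 15 (chr13:114523843-114524593), where the gene overlaps GAS6-AS1 on the other strand, read 68.9, 73.6 and 92.4 with PBS and 105, 148 and 132 with cetuximab in SCC6 (log2 0.70 ± 0.17, adjusted p = 0.00153). All 3 SCC6 calls passed under every alternative. In the fit of all lines, these 2 and a region past the 3′ end (49.8 kb, over an exon of TMEM255B) were higher, with log2 changes of 0.85, 0.36 and 0.58 (adjusted p = 0.0320, 0.0492 and 0.0249). The canonical GAS6 start had no region within 1 kb. The 1 region near another GAS6 start, at 39.8 kb, held at most 5.84 scaled reads in any library although 2 SCC25 libraries had a peak called there, and it was not tested.

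The MET promoter was accessible in every library and was not called in any line, while intronic regions were. The promoter region (chr7:116311865-116312560, exon 1) had a peak in 17 of 17 libraries. In SCC1 it read 323 and 317 with PBS and 303, 337 and 394 with cetuximab, in SCC6 250.1, 256 and 288 with PBS and 268, 282 and 291 with cetuximab, and in SCC25 243, 242 and 241 with PBS and 238, 256 and 138 with cetuximab. The groups overlapped in every line, with log2 changes of 0.10, 0.08 and -0.25 (adjusted p = 0.768, 0.547 and 0.545). The sign in SCC6 turned under median centring and that in SCC1 on removal of the GC trend, neither of them called. Per kb of region and in untreated cells, the MET promoter was at 459.6 scaled reads in SCC1, 380.2 in SCC6 and 347 in SCC25, above the AXL start region (133, 156 and 95.5) and the region upstream of the MERTK start (97.1, 42.1 and 76.5).

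In SCC6, 5 MET-window regions were higher with cetuximab and 2 lower, of 16 tested. The strongest gain was in an intron 30.1 kb downstream (chr7:116342196-116342549), which read 20.5, 14.7 and 19.6 with PBS and 73.7, 86.3 and 69.1 with cetuximab. This is a log2 change of 2.01 ± 0.26 (adjusted p = 3.31e-08), a 4.03-fold gain, with no overlap of the groups. In SCC1 the region read 26 and 45.8 with PBS and 50.8, 52.6 and 51.6 with cetuximab (log2 0.57, adjusted p = 0.326), and in SCC25 20.7, 15.1 and 34.8 with PBS and 28.1, 22.1 and 14.2 with cetuximab. The treated SCC1 libraries were above the untreated ones without passing, those of SCC25 overlapped, and the interaction passed (adjusted p = 0.00558).

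A region 17.8 kb downstream (chr7:116329767-116330380, intron) rose in SCC6, from 77.3, 89 and 65.3 to 166, 165 and 155 (log2 1.07 ± 0.16, adjusted p = 6.20e-07). In SCC25 every treated library lay below every untreated one, 73.1, 99.6 and 81.5 against 115, 131 and 107, without passing (log2 -0.47, adjusted p = 0.229). In SCC1 it read 69 and 46.9 with PBS and 49.5, 68.1 and 53.2 with cetuximab. The lines differed here (interaction adjusted p = 0.000822). A region 129.1 kb downstream, past the 3′ end of MET (chr7:116441161-116441602), rose in SCC6 from 43.5, 26.8 and 39.2 to 84.9, 107 and 86.6 (log2 1.34 ± 0.22, adjusted p = 6.34e-06).

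The intronic region 44.7 kb downstream (chr7:116356695-116357111), whose printed window holds 1 AP-1 and 1 TFAP2 motif, had a peak in every library. In SCC6 it rose from 78.5, 60.2 and 81.6 to 151, 108 and 114 (log2 0.75 ± 0.18, adjusted p = 0.00102), which brought it to the level of untreated SCC1 (134 and 111) and SCC25 (142, 127 and 106). With cetuximab those lines read 103, 125 and 121 (SCC1) and 128, 120.5 and 108 (SCC25), overlapping their controls. The fifth gain, at 34.6 kb (log2 0.56, adjusted p = 0.0329), was lost in 8 alternatives, among them median centring (0.143), quantile normalization (0.0848) and edgeR (0.0518), and without SCC6 cetuximab replicate 1 (0.143), SCC6 PBS replicate 1 (0.0857) or SCC6 PBS replicate 2 (0.124). It was named after its values were seen.

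The losses lay together, in introns 100.5 and 104.7 kb downstream. At the first (chr7:116412618-116412843), SCC6 fell from 31.4, 20.1 and 15.2 to 6.06, 1.86 and 10.9 (log2 -1.84 ± 0.49, adjusted p = 0.00329) and SCC1 from 14.3 and 42.4 to 10.2, 1.95 and 4.69 (log2 -2.17 ± 0.73, adjusted p = 0.0315). SCC25 read 51.6, 41.8 and 42.4 with PBS and 29.5, 26.7 and 46 with cetuximab (log2 -0.43, adjusted p = 0.498). It was the 1 member region called in both SCC1 and SCC6, and its printed window holds 2 AP-1 motifs. The values are low, and the SCC1 call was lost without SCC1 PBS replicate 1 (adjusted p = 0.0969), SCC1 PBS replicate 3 (0.546) or SCC1 cetuximab replicate 2 (0.0641), and with no filter on low regions (0.0565). At the second (chr7:116416706-116417229), SCC6 fell from 48.3, 56.2 and 60.9 to 27.3, 18.6 and 27.1 (log2 -1.16 ± 0.26, adjusted p = 0.000632), and SCC1 read 35.1 and 61.4 with PBS and 15.2, 15.6 and 36 with cetuximab (log2 -1.14, adjusted p = 0.0635). SCC25 read 82.5, 87.3 and 96.7 with PBS and 83, 97 and 104 with cetuximab, overlapping. Both regions were lower in the fit of all lines, with log2 changes of -1.43 and -0.71 (adjusted p = 0.00904 and 0.0302).

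**Figure D2:**
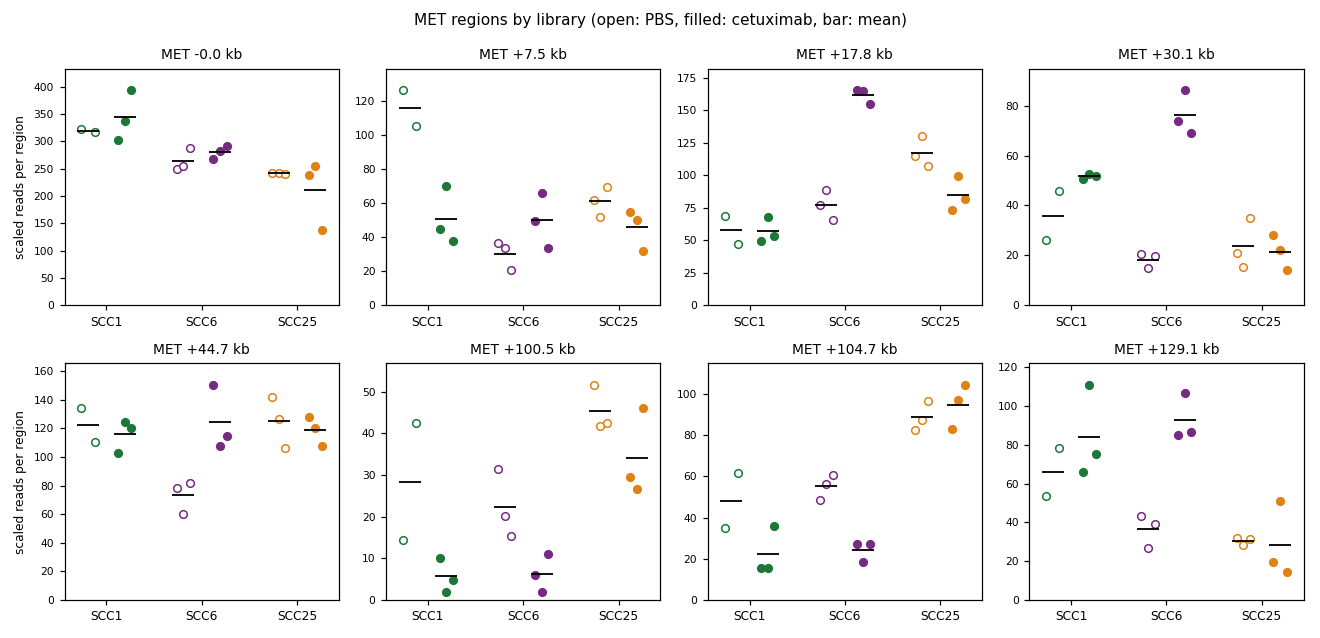
Scaled reads per region (vertical axis) of 8 MET regions in every library, by line (horizontal axis), with open points for PBS, filled points for cetuximab and a bar at each mean. The promoter panel (-0.0 kb) shows overlapping groups in every line, the panels at 17.8, 30.1, 44.7 and 129.1 kb show the SCC6 gains, and the panels at 100.5 and 104.7 kb the SCC6 losses.

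SCC1 had other MET-window calls than SCC6. The intronic region 7.5 kb downstream (chr7:116319605-116319869) fell in SCC1 from 126 and 105 to 44.4, 70.1 and 37.6 (log2 -1.22 ± 0.29, adjusted p = 0.00127). In SCC6 it went the other way without passing, from 36.2, 33.5 and 20.7 to 49.5, 65.9 and 33.7 (log2 0.69, adjusted p = 0.0537), and the interaction passed (adjusted p = 0.00790). The SCC1 call was lost without SCC1 PBS replicate 1 (adjusted p = 0.149). The intronic region 108.9 kb downstream (chr7:116420844-116421405) rose in SCC1 from 52 and 36.8 to 105, 75.9 and 86.1 (log2 1.00 ± 0.29, adjusted p = 0.0123), a call lost without SCC1 PBS replicate 3 (0.283), SCC1 PBS replicate 1 (0.053) or SCC1 cetuximab replicate 1 (0.104). The largest SCC1 log2 change among the member regions was at 138.3 kb (chr7:116450378-116450773), 351 bases from a start of CAPZA2, the neighbouring gene, which encodes an actin-capping protein. It rose in SCC1 from 3.90 and 3.35 to 26.7, 42.8 and 26.6 (log2 2.80 ± 0.61, adjusted p = 0.000374), and this was the 1 SCC1 call that passed under every alternative. Each SCC1 PBS library held only 3 reads there and no SCC1 library had a peak, so the size of the gain is imprecise. Untreated SCC6 read 36.2, 91.7 and 81.6, and the highest treated SCC1 library lay between the lowest and the middle of these. SCC25 read 12.8, 20.2 and 11.9 with PBS and 11.2, 15 and 12.4 with cetuximab (interaction adjusted p = 0.000796).

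MST1R had 2 regions, 1 called higher in SCC1 and the other called lower in SCC6. The start-site region (chr3:49941204-49941599, exon 1) rose in SCC1 from 79.4 and 87.1 to 197, 111 and 135 (log2 0.78 ± 0.24, adjusted p = 0.0181). In SCC6 it read 87, 89.7 and 71.8 with PBS and 48.5, 79.8 and 71.4 with cetuximab (log2 -0.33, adjusted p = 0.212), and in SCC25 60.3, 46.2 and 54.3 with PBS and 38, 76.2 and 44.3 with cetuximab, overlapping in both. The SCC1 call was lost on removal of the GC trend (adjusted p = 0.19), with all libraries in 1 fit (0.0531), and without SCC1 cetuximab replicate 1 (0.239), SCC1 PBS replicate 1 (0.257) or SCC1 PBS replicate 3 (0.12), and the interaction did not pass (adjusted p = 0.0830). The intronic region 3.1 kb downstream (chr3:49938043-49938459) fell in SCC6 from 99.1, 80.3 and 85.9 to 47.5, 56.6 and 55.9 (log2 -0.72 ± 0.20, adjusted p = 0.00532). In SCC1 it read 142 and 133 with PBS and 174, 171 and 218 with cetuximab (log2 0.44, adjusted p = 0.172), every treated library above the controls. The interaction passed at this region (adjusted p = 0.0114). Around MST1R in SCC1, 16 of 66 regions tested within 1 Mb outside the window were higher and 0 lower (limma), with a median log2 change of 0.49.

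No region at an EPHA2 start was called in any line. The region over the canonical start (chr1:16482536-16482682), named after its values were seen, read 33.8 and 38 with PBS and 58.4, 40.9 and 56.3 with cetuximab in SCC1. In SCC6 it read 27.8, 27.4 and 41.3 with PBS and 15.2, 27.9 and 27.1 with cetuximab, and in SCC25 29.8, 37.5 and 34.8 with PBS and 38, 36.5 and 46 with cetuximab, with log2 changes of 0.50, -0.47 and 0.23 and adjusted p of 0.393, 0.25 and 0.741. The SCC1 groups did not overlap, and those of SCC6 and SCC25 did. The highest region near an alternative start, at 10.5 kb, was not called either, with log2 changes between -0.10 and 0.09.

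Away from the start, EPHA2 had 1 SCC1 call and 2 SCC6 calls. An intronic region 12.2 kb downstream (chr1:16470015-16470634) rose in SCC1 from 70.3 and 49.1 to 139.6, 93.4 and 163 (log2 1.12 ± 0.26, adjusted p = 0.000866), which brought it near the level of SCC6, 139, 147 and 147 with PBS and 104, 164 and 119 with cetuximab. The SCC1 call was lost without SCC1 PBS replicate 3 (adjusted p = 0.127), and the interaction passed (adjusted p = 0.00410). Upstream of the gene at 3.1 kb (chr1:16485543-16485855), SCC6 fell from 38.7, 28.8 and 48.9 to 23.2, 9.28 and 9.92 (log2 -1.48 ± 0.34, adjusted p = 0.000692), while SCC25 read 90.4, 67.1 and 103 with PBS and 53.4, 74.9 and 70.8 with cetuximab (log2 -0.38, adjusted p = 0.436). Past the 3′ end at 42.9 kb (chr1:16439422-16439823, named after its values were seen), SCC6 rose from 24.2, 12 and 3.26 to 34.3, 52 and 47.9 (log2 2.01 ± 0.44, adjusted p = 0.00141). Both SCC6 calls passed under every alternative.

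**Figure D3:**
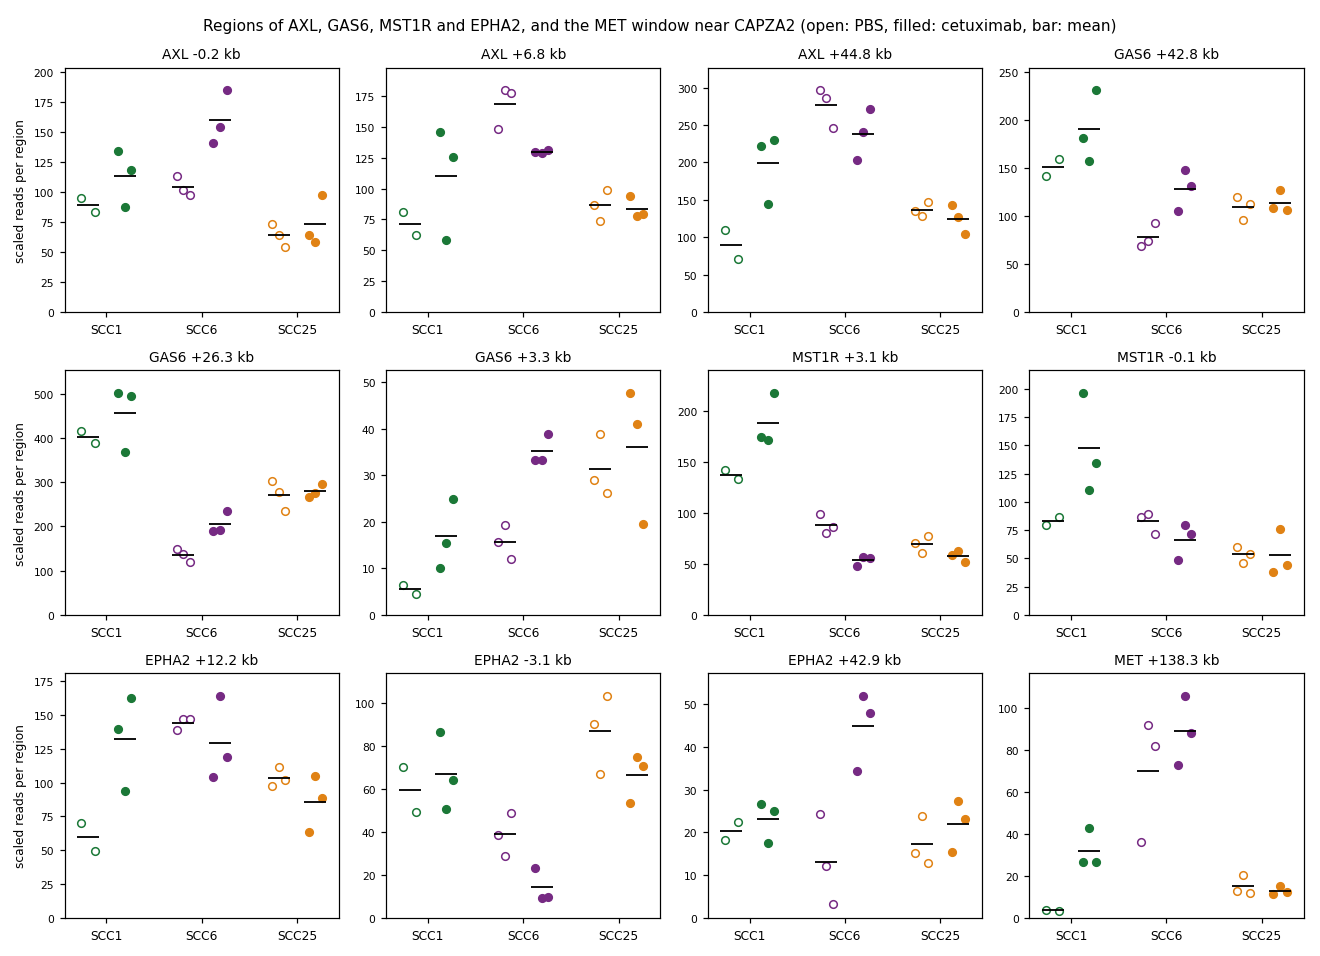
Scaled reads per region (vertical axis) of 11 regions of AXL, GAS6, MST1R and EPHA2 and of the MET-window region near CAPZA2 in every library, by line (horizontal axis), with open points for PBS, filled points for cetuximab and a bar at each mean. Treated and untreated SCC6 libraries separate at the AXL start (-0.2 kb) and AXL +6.8 kb, in GAS6, at MST1R +3.1 kb and at EPHA2 -3.1 and +42.9 kb. SCC1 libraries separate at AXL +44.8, MST1R -0.1, EPHA2 +12.2 and MET +138.3 kb, and without a call at GAS6 +3.3 and MST1R +3.1 kb.

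More member regions passed between untreated lines than between treated and untreated libraries of a line. Between SCC6 PBS and SCC1 PBS, 28 of 54 regions tested passed, 13 higher and 15 lower in SCC6 (background 61.2%, with 30.7% higher and 30.5% lower). Between SCC25 PBS and SCC1 PBS, 27 passed, 13 higher and 14 lower in SCC25 (background 51.3%, with 28.2% and 23.1%). Between SCC25 PBS and SCC6 PBS, 37 passed, 21 higher and 16 lower in SCC25 (background 68.7%, with 36.7% and 32.1%). The share of member regions that passed was close to the background for SCC25 PBS against either other line. It was somewhat below the background for SCC6 PBS against SCC1 PBS. The 3 comparisons share their PBS libraries. Peaks were called in SCC6 alone at 12 of the 58 regions, in SCC25 alone at 7 and in SCC1 alone at 0. The shares over all regions were not counted, so these counts cannot be read as particular to these genes. SCC1 had 5 libraries, of 2194851 to 4171650 reads in regions each, against 6 for the other lines.

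Of the 5 AXL-window regions tested, 4 were higher in SCC6 PBS than in SCC1 PBS and all 5 were lower in SCC25 PBS than in SCC6 PBS. At the intronic region 6.8 kb downstream, the PBS libraries read 149, 180.0 and 177 in SCC6, 80.7 and 62.5 in SCC1 and 86.7, 73.6 and 99.2 in SCC25. SCC6 was above SCC1 by 1.23 ± 0.18 on the log2 scale (adjusted p = 2.33e-05), and SCC25 was below SCC6 (log2 -0.96, adjusted p = 6.98e-05). SCC1 and SCC25 did not differ beyond their spread (adjusted p = 0.223). At the AXL start itself, SCC25 was lower than SCC1 (log2 -0.48, adjusted p = 0.0376) and SCC6 (log2 -0.71, adjusted p = 0.00127), and SCC6 and SCC1 did not differ beyond their spread (adjusted p = 0.309). The wider AXL locus moved the same way, since 53 of 69 regions tested within 1 Mb outside the window were higher in SCC6 than in SCC1 and 2 lower, with a median of 1.33, beside 1.24 for the AXL window. Of the same 69 regions, 45 were lower in SCC25 than in SCC6 and 7 higher, with a median of -0.75, beside -0.96 for the AXL window.

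Some regions were near the floor in all but 1 line, and others were low in SCC6 alone. Upstream of GAS6 at 8.7 kb (chr13:114575646-114575841), SCC6 PBS read 87, 55.5 and 65.3, where SCC1 read 1.30 and 1.12 and SCC25 3.77, 0.721 and 0.848. Set against a floor of 3 reads per library for SCC1, whose libraries were both at the floor, SCC6 was at least 19.1-fold higher (limma adjusted p = 9.83e-08). The TYRO3 intron region read 45.9, 34.1 and 37 in SCC6 PBS and 2.64, 2.16 and 1.70 in SCC25 PBS, and SCC6 was by the same floor at least 10.8-fold higher than SCC1 (adjusted p = 1.72e-08). SCC6 was near the floor in MET 51.9 kb downstream at the start of a shorter MET transcript (chr7:116363906-116364480). There the SCC6 PBS libraries read 4.83, 4.68 and 1.09, those of SCC1 104 and 77 and those of SCC25 52.4, 57 and 39 (SCC6 against SCC1, log2 -4.46 ± 0.44, adjusted p = 3.47e-07). Peaks were nevertheless called there in 3 SCC6 libraries, and the reason for this mismatch was not tested. A GAS6 intron region at 2.2 kb (chr13:114564779-114564999, named after its values were seen) was also low in SCC6 PBS, at 1.21, 7.36 and 1.09, where SCC1 read 14.3 and 22.3 and SCC25 29, 43.3 and 23.8 (SCC6 against SCC1, log2 -2.48 ± 0.58, adjusted p = 0.00155).

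SCC25 was the highest line at some regions of EPHA2 and MERTK. Past the 3′ end of EPHA2, the region at 32.2 kb (chr1:16450247-16450556) read 49.4, 59.1 and 54.3 in SCC25 PBS, 1.30 and 4.47 in SCC1 and 1.21, 4.68 and 2.2 in SCC6. Its neighbour at 33.0 kb, named after its values were seen, read 122, 136 and 119 in SCC25, 5.20 and 15.6 in SCC1 and 8.46, 10.7 and 7.61 in SCC6. SCC25 was above SCC1 by 3.96 ± 0.48 and 3.63 ± 0.39 on the log2 scale with a pseudocount of 1 (adjusted p = 7.55e-06 and 2.29e-06). Within 1 Mb of EPHA2 outside its window, 25 of 105 regions tested were higher in SCC25 PBS than in SCC1 PBS and 11 lower. Their median was 0.22, beside 0.04 for the EPHA2 regions. Against SCC6 PBS, 61 were higher and 8 lower, with medians of 0.71 outside and 0.61 inside the window. In the first intron of MERTK at 7.8 kb (chr2:112663880-112664143), SCC25 PBS read 28.6, 20.9 and 28.8, SCC1 1.30 and 2.23 and SCC6 1.21, 4.68 and 3.26 (SCC25 against SCC6, log2 2.83 ± 0.35, adjusted p = 2.90e-06). Of the 8 MERTK regions tested, 1 passed as higher and 4 as lower in SCC25 PBS against SCC1 PBS. Against SCC6 PBS, 2 passed as higher and 2 as lower. Both MST1R regions were lower in SCC25 PBS than in SCC1 PBS, with log2 differences of -0.98 and -0.63 (adjusted p = 0.000261 and 0.0138). Against SCC6 the start-site region was also lower (log2 -0.62, adjusted p = 0.00537), while the intronic region did not pass (adjusted p = 0.0621). The wider MST1R locus moved the same way. Of 65 regions tested within 1 Mb outside the window, 41 were lower in SCC25 PBS than in SCC1 PBS and 1 higher. Their median was -0.88, beside -0.81 for the MST1R regions. Against SCC6 PBS, 30 were lower and 9 higher, with medians of -0.38 outside and -0.48 inside the window.

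Other regions differed between lines without a call for treatment, and were named after their values were seen. In MET at 58.6 kb (chr7:116370753-116370993, intron), the PBS libraries read 30.2, 38.1 and 38.1 in SCC6, 1.30 and 2.23 in SCC1 and 6.03, 17.3 and 8.48 in SCC25. The SCC1 PBS libraries held 1 and 2 reads, too few for a fold. Upstream of MET at 18.8 kb (chr7:116292995-116293938), a region with a peak in 16 of 17 libraries read 206 and 173 in SCC1, 134, 132 and 109 in SCC25 and 87, 89 and 96.8 in SCC6, and each pair of lines differed (adjusted p = 2.45e-05 for SCC6 against SCC1, 0.00446 for SCC25 against SCC1 and 0.00835 for SCC25 against SCC6). SCC1 was the highest and SCC6 the lowest there.

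**Figure D4:**
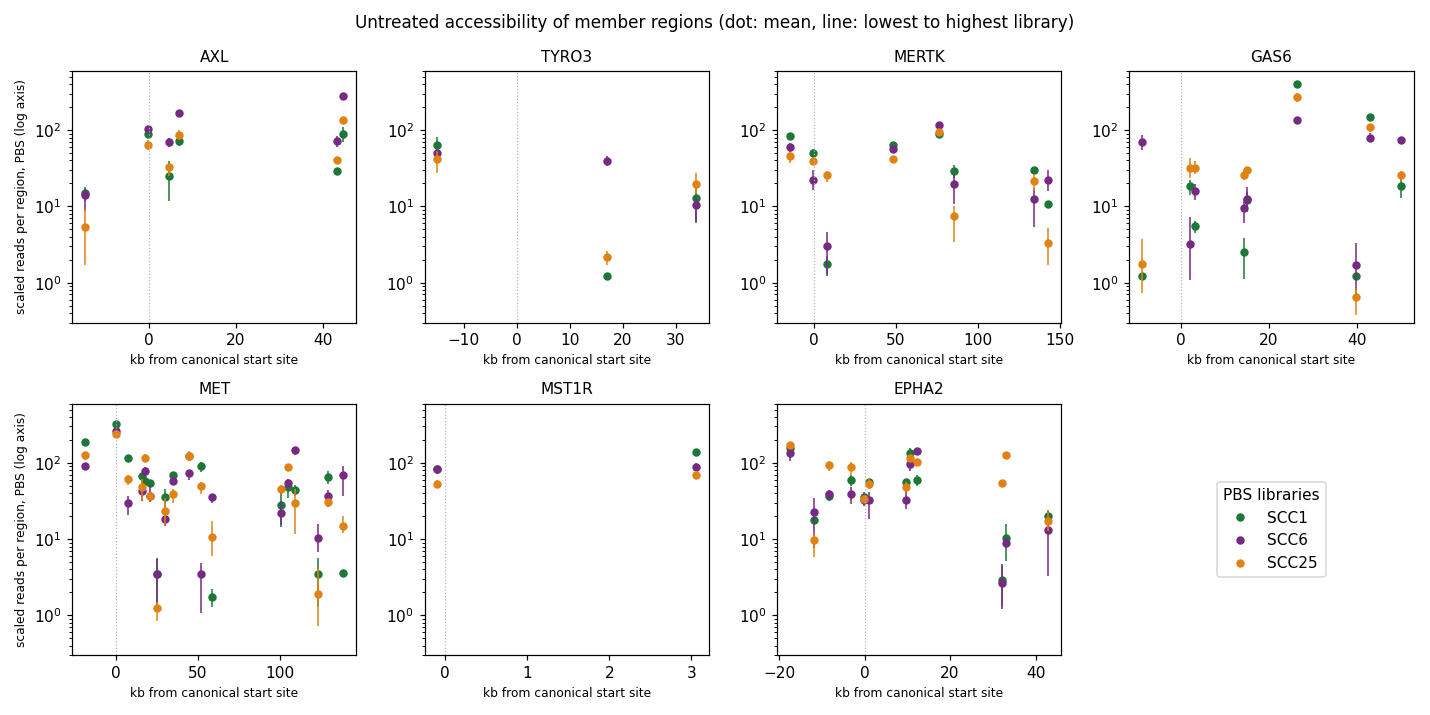
Scaled reads per region in the PBS libraries (vertical axis, log scale) against kb from the canonical start site (horizontal axis) for the 7 genes, with a dot at the mean of each line and a line from its lowest to its highest library. SCC6 alone is high at GAS6 -8.7 kb and TYRO3 +16.9 kb, SCC6 is low at MET +51.9 kb, and SCC25 alone is high at EPHA2 +32.2 and +33.0 kb.

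Changes of neighbouring regions in SCC6 are given here beside those of each gene. In SCC6, 22 of 66 regions tested within 1 Mb of MET outside its window were higher with cetuximab and 1 lower, with a median log2 change of 0.34, beside 0.26 for the 16 tested MET regions. Around GAS6 the same counts were 7 higher and 6 lower of 51, with a median of -0.07, beside 0.49 for the 7 tested GAS6 regions. Around EPHA2 they were 11 and 12 of 89, with medians of -0.03 outside and -0.14 inside the window. For MST1R the counts were 6 and 1 of 65, with medians of 0.11 and -0.53. AXL had 9 and 7 of 69 (-0.12 and -0.20), TYRO3 4 and 7 of 83 (-0.09 and 0.44) and MERTK 11 and 9 of 70 (0.03 and 0.35).

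Ligands, proteases, inhibitors and adaptors that act with these receptors gave 132 regions at 21 further genes by the same rule, a region shared by neighbouring genes being counted once in these totals. In SCC1, 25 of 116 tested passed (21.6%, over all regions 11.1%), 21 higher and 4 lower. In SCC6, 18 of 111 passed (16.2%, over all regions 27.5%), 8 higher and 10 lower, and in SCC25 limma called 0 of 114. In SCC1 the gains included regions at EFNA1 (2), EFNA2 (3), EFNA3 (2) and EFNA4 (3), which encode ligands of EPHA2, and at the adaptor gene SHC1 (4). EFNA3 and EFNA4 share 2 of theirs. SHC1, EFNA4, EFNA3 and EFNA1 are neighbours, and their called regions lie in 1 stretch of chromosome 1 (chr1:154933830-155108492), so they are not separate places in the genome. EFNA5, another EPHA2 ligand gene, and the adaptor gene GAB1 had 2 lower each. In SCC6, PROS1, which encodes the other TAM ligand, had 2 regions higher and 1 lower of 6, and HGF, which encodes the MET ligand, had 1 higher and 1 lower of 8.

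Over the central 200 bases, the AP-1 motif TGANTCA (either strand) was in 13 of the 58 member regions (22.4%) and in 26.6% of all regions. The TFAP2 motif GCCNNNGGC was in 8 (13.8%) and in 8.55% of all regions. Among the regions higher with cetuximab in SCC6, 4 of 11 held the AP-1 motif and 1 the TFAP2 motif, and among those lower, 1 of 5 held AP-1. In SCC1, 0 of the 6 higher and 1 of the 2 lower held AP-1. A match is a description of the letters in this window and not a measured binding site.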

How the data were processed

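The authors trimmed adapters (Trim Galore 0.5.0), aligned reads to hg19 (GRCh37) with Bowtie2 2.3.2, removed duplicate and mitochondrial reads (Picard 2.18) and unmapped or low-quality reads (SAMtools 1.9), called broad peaks per library with MACS2 and merged them with DiffBind. Versions and cutoffs of the latter are not given in the sources used here. The deposited table gives a signal per region and library: 100% of values were whole reads (0 set to 1, tolerance 0.001) times 1 step per library. The deposited peak lists hold each peak's ratio over background and its p-value and q-value as −log10; presence of a peak was read from their positions. Region starts equal the 0-based starts of the peaks and are printed as deposited.

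Log2(signal + 1) was fitted with limma 3.58.1 in R 4.3.3 (trend and robust empirical Bayes, two-sided) over all regions, without the 25% lowest in mean, with Benjamini-Hochberg adjustment at 0.05. Fits were made for each line, all lines with line as covariate, the interaction, and the PBS libraries of all lines. The test was checked on simulated data. Alternatives were median centring, quantile normalization, scaling to regions without a peak, removal of the GC trend (spline, 6 df), a pseudocount of 5, no filter, edgeR 4.0.16 on recovered reads, the replicate number as a block, all libraries in 1 fit, and leaving out each library. Leaving out 1 of the 2 SCC1 PBS libraries assumes that the lone sample varies like the other group.

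The member genes and lists were chosen with earlier results of these data known. Some genes of the marker lists are not reported here. Regions were named if they had the highest mean within 1 kb of a start of the gene, were called without overlap of the groups (at most 8 per line by adjusted p), had the largest range of PBS means per gene, or had 1 of the 6 smallest interaction p-values. Others are said to have been named after their values were seen. Depth per library limits low regions: total reads are unknown and counting error is not all of the error. Coordinates and sequences are those of GRCh37, and annotation is GENCODE 44 mapped to it.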

Additional observations from a re-analysis of the deposited data

Results flagged for a closer look

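The effect of cetuximab differed between lines by the interaction F-test (limma, Benjamini-Hochberg adjusted) at 13 member regions, given with the adjusted p and the log2 changes in SCC1, SCC6 and SCC25 in that order.

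In the MET window there were 7. At 138.3 kb, near CAPZA2, the changes were 2.80, 0.43 and -0.17 (adjusted p = 0.000796). At 17.8 kb they were -0.01, 1.07 and -0.47 (0.000822). The region 30.1 kb downstream changed by 0.57, 2.01 and -0.10 (0.00558), and that at 7.5 kb by -1.22, 0.69 and -0.44 (0.0079). Further along, the values were -0.07, 0.75 and -0.06 at 44.7 kb (0.0326), 0.34, 1.34 and -0.31 at 129.1 kb (0.0343), and -1.14, -1.16 and 0.09 at 104.7 kb (0.047).

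In the AXL window, both regions over HNRNPUL1 differed, at 44.8 kb by 1.14, -0.22 and -0.14 (0.00108) and at 43.3 kb by 1.17, 0.06 and -0.07 (0.0357). MST1R differed at 3.1 kb, with 0.44, -0.72 and -0.26 (0.0114). EPHA2 differed at 12.2 kb, with 1.12, -0.19 and -0.30 (0.0041), and at 3.1 kb upstream, with 0.15, -1.48 and -0.38 (0.032). At EPHA2 33.0 kb (0.0375), the change was 0.88 in SCC1 and -0.38 in SCC25, and SCC6 was too low to be tested by itself.

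Of these 13 regions, 5 passed under every alternative: MET at 138.3, 17.8, 30.1 and 7.5 kb and the AXL window at 44.8 kb. The others were lost on leaving out at least 1 library, MST1R only without SCC1 PBS replicate 3 (adjusted p = 0.0503) and EPHA2 at 12.2 kb only without the same library (0.0602), and MST1R also with libraries scaled to regions without a peak (0.113).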

How the results depend on the processing

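The direction of the 8 SCC1, 16 SCC6 and 6 all-line calls was kept in every alternative, and 1, 13 and 0 of them stayed below 0.05 in all. Of the 13 interaction calls, 5 did. Counts of member regions called changed by over 1.5 times when libraries were scaled to regions without a peak. They became 9 in SCC25 (all lower), 19 over all lines and 20 for the interaction. Of all 86315 regions tested, this scaling called 13589, 24491 and 30387 in the same fits. It moved the median of all regions to -0.37 in SCC25 and 0.35 over all lines. With the replicate block the all-line count was 0, and over all regions 4271 of 86315 were called, beside 10511 without the block. Replicate numbers did not pair the samples: same-numbered libraries deviated together at r = -0.042 to 0.026 (8 pairs). Of the 8 cetuximab libraries with a same-numbered PBS library, 3 correlated best with their own number. The replicate block gave 10 calls in SCC1 and 18 in SCC6, without the SCC1 loss at MET 100.5 kb (adjusted p = 0.129, limma). Over all regions the block called 12451 in SCC1 and 24768 in SCC6, beside 9613 and 23774 without it. The all-line losses at MET 100.5 and 104.7 kb had adjusted p of 0.0516 and 0.0857 with the block (limma). Leaving out 1 library at a time gave 3 to 10 calls in SCC1, 13 to 17 in SCC6, 0 to 1 in SCC25, 2 to 8 over all lines and 8 to 18 for the interaction. Counts over all regions on leaving out 1 library are not given here, so these ranges cannot be read as particular to these genes. The higher and lower calls over all lines were 18 and 1 with libraries scaled to regions without a peak and 7 and 2 under median centring or edgeR. Over all regions they were 22875 and 1616 with that scaling, 5445 and 5092 under median centring and 4759 and 6756 with edgeR. For SCC6 PBS against SCC1 PBS, scaling to regions without a peak gave 12 higher and 26 lower (all regions 19872 and 38984). For SCC25 PBS against SCC6 PBS it gave 27 and 9 (all regions 41620 and 18234). Median centring gave 16 and 21 there (all regions 29093 and 31426).

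Of 1093 single-region values under alternatives, 52 had the other sign, and 0 of these were called by limma or edgeR. Under median centring the log2 difference was 0.0379 at AXL 6.8 kb in SCC25, 0.0359 at MERTK -0.4 kb in SCC25, -0.0891 at the MET start in SCC6, 0.00095 at MST1R -0.1 kb in SCC25, 0.177 at MET 17.8 kb in SCC1, -0.0702 at GAS6 -8.7 kb for SCC25 PBS against SCC1 PBS. Under quantile normalization the log2 difference was 0.0337 at AXL 6.8 kb in SCC25, 0.0244 at MERTK -0.4 kb in SCC25, 0.0063 at MET 30.1 kb in SCC25, 0.11 at MET 17.8 kb in SCC1. With edgeR the log2 difference was 0.0146 at AXL 6.8 kb in SCC25, 0.0288 at MERTK -0.4 kb in SCC25, 0.121 at MST1R -0.1 kb in SCC25, 0.0281 at MET 17.8 kb in SCC1, 0.0997 at EPHA2 32.2 kb for SCC6 PBS against SCC1 PBS. With the GC trend removed the log2 difference was -0.24 at the MET start in SCC1, -0.0833 at EPHA2 10.5 kb in SCC1, 0.0369 at MET 30.1 kb in SCC25, 0.208 at MET 17.8 kb in SCC1, -0.119 at TYRO3 16.9 kb for SCC25 PBS against SCC1 PBS, -0.423 at MERTK 7.8 kb for SCC6 PBS against SCC1 PBS, 0.378 at EPHA2 32.2 kb for SCC6 PBS against SCC1 PBS. With libraries scaled to regions without a peak the log2 difference was 0.129 at EPHA2 10.5 kb in SCC6, -0.278 at EPHA2 10.5 kb in SCC25, 0.00904 at AXL 44.8 kb in SCC6, 0.0377 at EPHA2 12.2 kb in SCC6, 0.141 at MST1R 3.1 kb for SCC25 PBS against SCC6 PBS. Leaving out 1 library at a time, the range was -0.15 to 0.0636 at AXL 6.8 kb in SCC25, -0.311 to 0.147 at MERTK -0.4 kb in SCC25, -0.00121 to 0.188 at the MET start in SCC1, -0.414 to 0.0288 at the MET start in SCC25, -0.37 to 0.124 at MST1R -0.1 kb in SCC25, -0.131 to 0.321 at EPHA2 10.5 kb in SCC1, -0.248 to 0.105 at EPHA2 10.5 kb in SCC6, -0.093 to 0.182 at EPHA2 10.5 kb in SCC25, -0.311 to 0.0483 at MET 138.3 kb in SCC25, -0.361 to 0.213 at MET 30.1 kb in SCC25, -0.285 to 0.261 at MET 17.8 kb in SCC1, -0.307 to 0.428 at GAS6 -8.7 kb for SCC25 PBS against SCC1 PBS, -0.678 to 0.57 at EPHA2 32.2 kb for SCC6 PBS against SCC1 PBS. The cause of these changes was not tested. Depth limits the regions with few reads, above all in SCC1.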
